A study of Rattus norvegicus with 12 samples.

Results

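The Erbb receptors, their ligands and the sheddase Adam17 were examined in the mammary glands of young rats whose dams had been fed a high fat butter (HFB) diet or the control AIN diet (CTL). The group held 10 genes of the 16511 in the count table, with 4 receptors (Egfr, Erbb2, Erbb3 and Erbb4), 5 ligands (Areg, Ereg, Hbegf, Tgfa and Nrg1) and 1 sheddase. The genes were listed by family, and Adam17 was in addition selected on its lower level with the HFB diet in these same 12 libraries, so that its diet difference is given as a description without a test. By the labels and the design of the series, RNA was sequenced from snap-frozen mammary glands at PND21, with 1 gland from each litter and 6 litters for each diet, while the paper used here for the animals (Sprague-Dawley females) reports sequencing of microdissected epithelia with other treatments. The labels are followed here, and the written sources beyond them do not settle which tissue was taken. Every library held adipocyte, fibroblast and skeletal muscle markers, at the levels given below. The sources used here gave different starts for the maternal diets, before mating or on the first day of gestation, and different ends, and they place the offspring on the AIN diet after birth. The diets were compared in animals of the same strain, and the labels name no other agent. The libraries held between 2320267 and 2944680 counts each, and 3 counts, taken as the lowest level that could be detected, corresponded to 1.02 to 1.29 in counts-per-million units (CPM, normalized between libraries by TMM factors where a level is given).

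Erbb receptors are tyrosine kinases of the cell surface that pair and phosphorylate each other when a ligand binds, and they pass the signal on to the MAP kinase cascade and to PI3 kinase. Erbb2 has no known ligand of its own and acts as a partner for the other receptors, while Erbb3 has little kinase activity and relies on its partner. Most of the ligands are made as precursors anchored in the membrane, and Adam17 cuts several of them loose. In the mammary gland, Areg made by the luminal epithelium and released by Adam17 acts on Egfr of the surrounding stroma during the growth of the ducts.

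Libraries HFB 6 and CTL 14 stood apart from the rest. Across the 9382 genes kept by the filter on low counts, the profiles of HFB 6 and CTL 14 correlated with each other at r = 0.948 across genes, which are not independent replicates. With the 9 libraries other than these and HFB 5, HFB 6 correlated at 0.741 to 0.799 and CTL 14 at 0.809 to 0.849, whereas those 9 correlated among themselves at 0.925 to 0.977. HFB 5 lay between them, with r of 0.878 to 0.941 to the same 9 libraries. Lymphoid markers, with 7 of 8 listed genes in the table and led by Cd79b, the gene of the list with the highest mean CPM over the 12 libraries, summed to 765 CPM in HFB 6 and 750 CPM in CTL 14, against 162 CPM in HFB 1, 75.8 CPM in HFB 2 and 32.2 CPM or less in the other 8 libraries. Adipocyte markers (7 of 7, led by Fabp4) summed to 17952 CPM in HFB 6 and 14426 CPM in CTL 14 and to between 27381 and 35070 CPM elsewhere. Fibroblast markers (6 of 6, led by Col3a1) were likewise lowest in this pair, at 24317 and 23057 CPM. Diet differences that rest on these libraries are therefore given with and without them.

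The glands held markers of epithelium, fat, stroma, muscle and nerve in proportions that differed between libraries. Luminal markers (9 of 9, led by Krt8, with Cldn3 at 0 in every library) summed to 123 CPM in HFB 1, 167 in HFB 2, 145 in HFB 3, 422 in HFB 4, 645 in HFB 5 and 666 in HFB 6. In the CTL libraries the same sum was 543 CPM in CTL 7, 275 in CTL 8, 203 in CTL 9, 409.6 in CTL 10, 490.5 in CTL 11 and 671 in CTL 14. Basal markers (4 of 5, led by Krt15) ran from 14.8 CPM in HFB 1 to 265 CPM in CTL 14. Skeletal muscle markers (7 of 7, led by Acta1) ran from 202 CPM in CTL 10 to 7069 CPM in CTL 11, and Schwann cell markers (5 of 5, led by Mbp) from 71.6 CPM in HFB 1 to 444 CPM in CTL 14. Macrophage markers (5 of 5, led by Csf1r) lay between 230 and 442 CPM, endothelial markers (4 of 5, led by Pecam1) between 131 and 445 CPM, and skin keratinocyte markers (2 of 5, led by Krt10) between 4.23 and 10.7 CPM. In tissue of mixed cells, fewer cells of a type and less RNA per cell cannot be told apart.

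Among the receptors, Erbb2 and Egfr had at least 3 counts in all 12 libraries and Erbb3 in 11, and Erbb4 was not detectable at this depth. To show what lies before the start of the receptor genes, the 250 bases upstream of Egfr (RefSeq, GRCr8, chr14:95378376-95378625, plus strand) are printed 5′ to 3′ with a GC box, GGGCGG on either strand, in capitals. A stretch of 30 bases from the same window of Erbb2 (chr10:83907491-83907520, plus strand), from 110 to 81 bases before its start, is shown because it is the one place where the 250 bases before Erbb2 hold these motifs, with the CCAAT box and the GC box both in capitals. The gene span of Erbb2 in the RefSeq gene table begins upstream of the start used in the promoter table, so this stretch lies within the annotated span, and whether it is exon or intron is not given in the sources used here.
Egfr: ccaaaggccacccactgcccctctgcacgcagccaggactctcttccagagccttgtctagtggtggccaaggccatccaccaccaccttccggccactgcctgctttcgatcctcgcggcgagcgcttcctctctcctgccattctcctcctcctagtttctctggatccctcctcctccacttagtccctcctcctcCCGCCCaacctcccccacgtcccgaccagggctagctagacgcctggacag
Erbb2: gctcCCAATcacGGGCGGaggaggaggtgg
The GC box is a common motif that was present in the 250 bases upstream of 30.5% of 33469 rat promoters, and CCAAT on either strand was present in 34.0%. A match describes the sequence and does not show a bound factor.

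Erbb2 (Entrez 24337), the receptor without a ligand, had a level of 5.57 CPM in the lowest HFB library, a median of 11.2 CPM and 28.5 CPM in the highest. In the CTL libraries its lowest, median and highest levels were 15.2, 18.4 and 23.7 CPM. The 6 HFB libraries fell into high and low values, with HFB 1 to 4 at 8.23, 5.57, 11.3 and 11.1 CPM, below every CTL library, and HFB 5 and HFB 6 at 24.0 and 28.5 CPM, above every CTL library on this scale. On CPM of the totals alone, HFB 1 to 4 were again below every CTL library, but HFB 5, at 22.5 CPM, was below CTL 7 (25.5) and CTL 14 (26.7), and HFB 6 was level with CTL 14 at 26.7 CPM. Without HFB 5, HFB 6 and CTL 14, Erbb2 was among 86 of 9480 genes (0.907%) lower in every HFB than in every CTL library. The mean level was 14.8 ± 9.22 CPM (SD, n = 6) with HFB and 19.2 ± 3.80 CPM (SD, n = 6) with CTL, and the log2 fold change of −0.38 (SE 0.35, 95% interval −1.14 to 0.38) had an adjusted p of 0.999 in edgeR's quasi-likelihood test. Without HFB 5, HFB 6 and CTL 14, an alternative chosen after the data had been seen that leaves out the 2 HFB libraries with the most Erbb2, the log2 fold change was −1.01 (SE 0.23), and the adjusted p in edgeR was 0.671, against 0.671 to 1 over the alternatives of this gene. Over all 12 libraries, limma voom with quality weights gave −0.96 (SE 0.25, adjusted p = 0.707), and edgeR without HFB 6 and CTL 14 gave −0.60 (SE 0.31, adjusted p = 0.930). With 1 library left out, the log2 fold change in edgeR lay between −0.67 (without HFB 6) and −0.21 (without HFB 2). HFB 1, HFB 2 and HFB 3 had the lowest luminal marker sums as well, and with the luminal score as a covariate the log2 fold change of Erbb2 over the 12 libraries was −0.18. HFB 4, however, had a luminal sum of 422 CPM, above those of CTL 8, CTL 9 and CTL 10, and an Erbb2 level below every CTL library. The part of luminal content in the difference was not tested.

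Egfr (Entrez 24329), the receptor of Areg and Tgfa, had between 5 and 42 reads in a library. Its level in the HFB libraries was 2.0 CPM at the lowest, 5.24 CPM at the median and 10.4 CPM at the highest, and in the CTL libraries 3.87, 9.35 and 13.3 CPM. The diets overlapped widely, although CTL 7, CTL 10 and CTL 11, at 13.3, 12.6 and 12.6 CPM, were above every HFB library. The log2 fold change was −0.72 (SE 0.42, 95% interval −1.62 to 0.19), which did not pass the test (adjusted p = 0.999, edgeR). Without HFB 6 and CTL 14 it was −0.70 (SE 0.36, adjusted p = 0.930 in edgeR, against 0.630 to 1 over its alternatives). The interval reached from a level 0.325 times that of CTL to 1.14 times, so that the depth and the spread between litters left a wide range of differences undetected.

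Erbb3 (Entrez 29496), which binds neuregulins and couples to PI3 kinase, had a median of 4.28 CPM and a highest level of 8.95 CPM in the HFB libraries, and was under the floor of 3 counts (1.13 CPM) in the lowest, HFB 6. The lowest, median and highest levels in the CTL libraries were 2.82, 7.06 and 12.6 CPM. HFB 6 held a single Erbb3 read beside 71 reads of Erbb2, and HFB 2 held 4 beside 13. The log2 fold change of −0.60 (SE 0.56, 95% interval −1.80 to 0.60) did not pass the test (adjusted p = 0.999, edgeR). It was −0.52 (SE 0.42) without HFB 6 and CTL 14 and −0.37 (SE 0.42) without HFB 5 as well. With 1 library left out it lay between −0.89 (without HFB 4) and −0.36 (without CTL 10). Erbb4 (Entrez 59323), the other neuregulin receptor, gave 1 read in HFB 1 and 1 in CTL 10 among 31207930 counts in all, under the 3 counts (0.0961 CPM over all libraries) taken as the floor. This limit and the intervals on single counts cover counting error only.

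**Figure D1:**
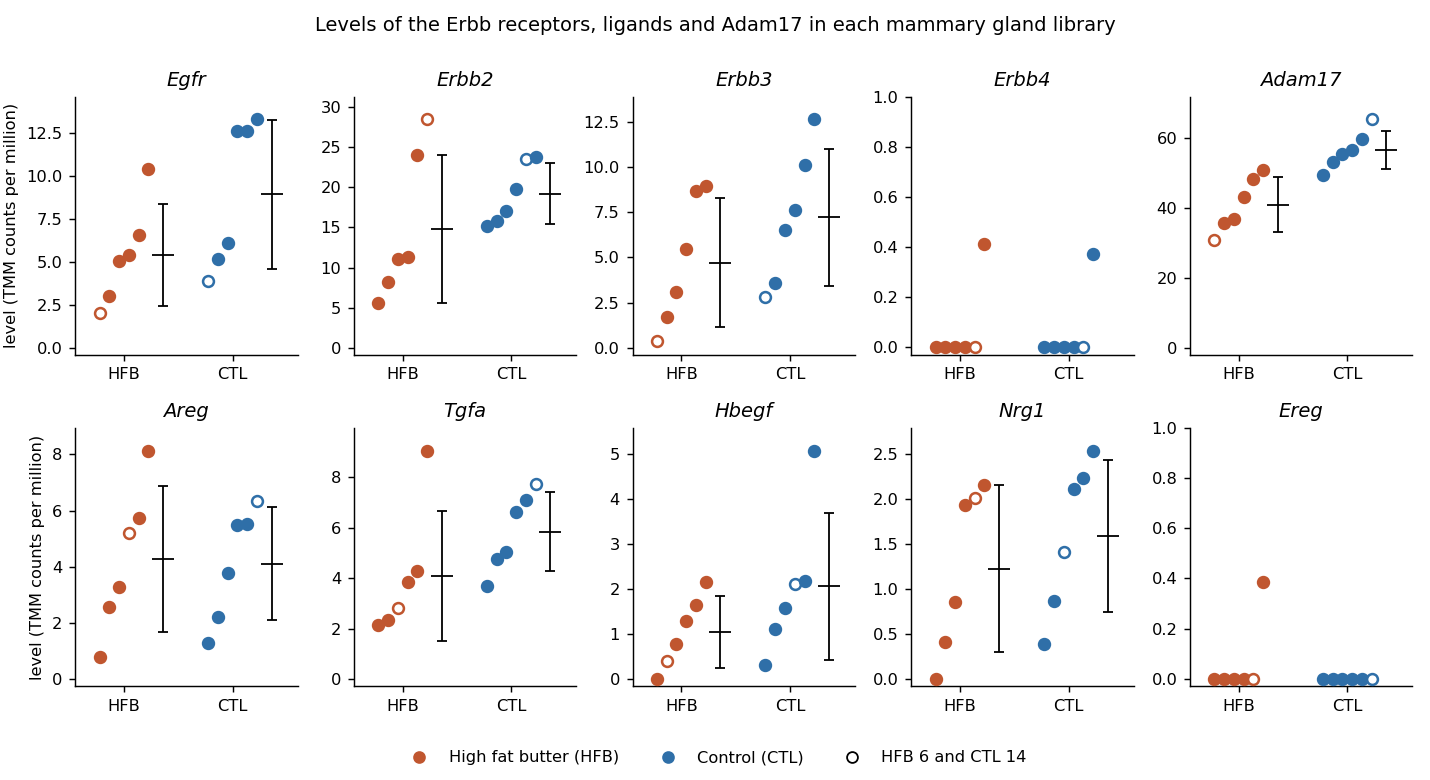
Level of each gene (vertical axis, TMM-normalized CPM, a separate linear scale for each gene) in the 6 HFB and 6 CTL libraries, with each point a library, open points for HFB 6 and CTL 14, and the bar the mean with the SD (not drawn for Erbb4 and Ereg, which had 2 reads and 1 read). On this scale Erbb2 in HFB libraries lay both below and above all CTL libraries, while Adam17 in HFB libraries lay between 30.9 and 50.8 CPM and in CTL libraries between 49.3 and 65.2 CPM.

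Egfr and Erbb3 followed each other from library to library, while the relation of Erbb2 to them changed with HFB 6 and CTL 14. Across the 12 libraries, Erbb3 was the gene most like Egfr of the 9381 others kept by the filter (Pearson r of log2 CPM = 0.918), and Egfr ranked 18 of 9381 for Erbb3. Over the 10 libraries without HFB 6 and CTL 14, r was 0.871, and the ranks were 17 and 40. Erbb2 gave r = 0.07 with Egfr and −0.17 with Erbb3 across the 12 libraries, at ranks 4298 and 5441. Over the 10 libraries the same values were 0.59 and 0.33, at ranks 699 and 2187, and the opposed values of HFB 6 (71 reads of Erbb2, 5 of Egfr and 1 of Erbb3) and CTL 14 (67, 11 and 8 reads) were what lowered it over the 12. These correlations describe libraries that share their depth of sequencing and their tissue makeup, and no test was made of them.

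**Figure D2:**
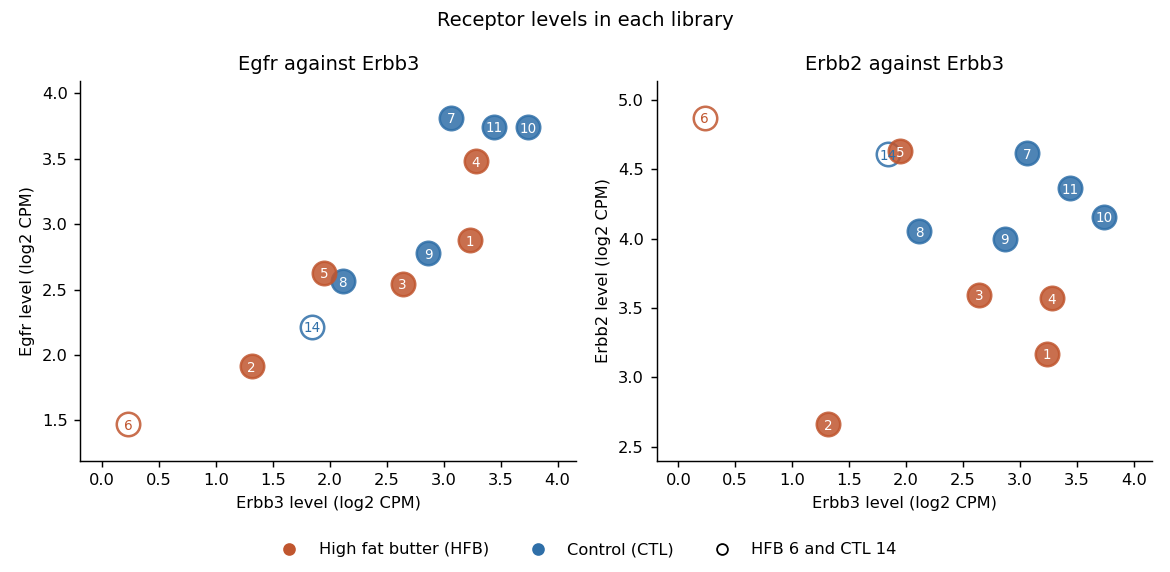
Log2 CPM of Egfr (left) and Erbb2 (right) against log2 CPM of Erbb3, with each circle a library that carries its library number, coloured by diet, and open circles for HFB 6 and CTL 14. Egfr lay close to a line with Erbb3 (r = 0.918 over 12 libraries), whereas HFB 6 had the highest Erbb2 and the lowest Erbb3.

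Of the ligands, Areg and Tgfa passed the filter, and Hbegf, Nrg1 and Ereg did not. The promoter of Areg is printed because it alone among the 7 members with a RefSeq promoter entry held a TATA box and a cAMP response element (CRE). It is the 250 bases upstream of the start (GRCr8, chr14:17265642-17265891, minus strand, read 5′ to 3′ on the gene's strand), with the CRE (TGACGTCA), the GC box and the TATA box (TATAA) in capitals.
Areg: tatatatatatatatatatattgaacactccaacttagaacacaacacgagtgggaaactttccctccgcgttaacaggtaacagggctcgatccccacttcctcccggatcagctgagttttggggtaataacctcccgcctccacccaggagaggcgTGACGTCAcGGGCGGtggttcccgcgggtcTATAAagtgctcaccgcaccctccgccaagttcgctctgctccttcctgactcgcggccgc
On either strand, TATAA was present in 24.0% and TGACGTCA in 1.6% of the 33469 promoters, and none of the 3 motifs overlapped another in Areg. CCAAT was present in 2 of the 7 members, Erbb2 and Hbegf, and the GC box in 6 of 7, namely Egfr, Erbb2, Erbb4, Areg, Tgfa and Adam17. The windows of these members held 54.4% (Areg) to 74.4% (Tgfa) G and C, above the median of 51.2% over all promoters. Erbb3, Ereg and Nrg1 are named only.

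Areg (Entrez 29183), the main Egfr ligand of the growing ducts, had from 2 to 21 reads in a library. In the HFB libraries its median was 4.25 CPM and its highest level 8.12 CPM, and HFB 3, with 2 reads, was under the floor. In the CTL libraries the lowest, median and highest levels were 1.30, 4.64 and 6.34 CPM. HFB 5 was highest and HFB 3 lowest of all 12, so that the whole range was found within the HFB group. The log2 fold change was 0.06 (SE 0.48, 95% interval −0.98 to 1.1; adjusted p = 0.999, edgeR), and its sign turned with the processing, for example to −0.29 with limma voom and quality weights. Without HFB 6 and CTL 14 it was 0.17 (SE 0.52), and without HFB 5 as well −0.23 (SE 0.51). The counts of Areg varied between libraries 3.07 times as much as counting noise alone would give, by their chi-square per degree of freedom.

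Tgfa (Entrez 24827), a second ligand of Egfr, had 6 to 22 reads. Its lowest, median and highest levels were 2.15, 3.34 and 9.05 CPM with HFB and 3.71, 5.85 and 7.75 CPM with CTL. HFB 1 alone among the HFB libraries, at 9.05 CPM, was above the CTL median, and it was also above every CTL library. The log2 fold change of −0.52 (SE 0.36, 95% interval −1.31 to 0.26) did not pass the test (adjusted p = 0.999, edgeR). Without HFB 1 it was −0.92, without HFB 6 and CTL 14 it was −0.34 (SE 0.39), and without HFB 5 as well −0.31 (SE 0.41).

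Hbegf (Entrez 25433), which binds Egfr and Erbb4, was counted between 0 and 12 times, with at least 3 reads in 8 of 12 libraries. Its 12 reads in CTL 11 were the most, and HFB 5 had 0, which allows up to 1.09 CPM there. Nrg1 (Entrez 112400), a ligand of Erbb3 and Erbb4, was counted between 0 and 8 times, with at least 3 reads in 7 libraries. Its counts varied 1.46 times as much as counting noise. Ereg (Entrez 59325) gave 1 read, in HFB 5. The mean level of Hbegf was 1.04 ± 0.802 CPM with HFB and 2.06 ± 1.62 CPM with CTL, and that of Nrg1 1.23 ± 0.923 and 1.59 ± 0.841 CPM (SD, n = 6 each), with overlapping diets and means close to the floor. These ligands did not pass the filter, and no fold change or test is given for them.

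Adam17 (Entrez 57027), the sheddase, had between 77 and 185 reads in a library. Its levels were 48.1, 35.6, 36.7, 50.8, 42.9 and 30.9 CPM in HFB 1 to HFB 6. In the CTL libraries they were 55.4 CPM in CTL 7, 56.5 in CTL 8, 59.6 in CTL 9, 49.3 in CTL 10, 53.1 in CTL 11 and 65.2 in CTL 14. The diets overlapped by a single pair of libraries, HFB 4 and CTL 10. The mean was 40.8 ± 7.78 CPM (SD, n = 6) with HFB and 56.5 ± 5.45 CPM (SD, n = 6) with CTL, a log2 fold change of −0.47. On CPM of the totals alone, without normalization factors, the highest HFB library was at 51.4 CPM and the lowest CTL library at 51.9 CPM, and 0.192% of the 9382 genes were lower in this way in every HFB than in every CTL library. Adam17 was noted on this contrast, and nothing is read from that share.

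HFB 6 and CTL 14, the libraries that resembled each other in their whole profile, held the lowest and the highest Adam17 level. Without them the log2 fold change was −0.35, and without HFB 5 as well it was −0.35. Over all 23 alternatives it lay between −0.56 and −0.35. The biological coefficient of variation was computed for the 6 members kept. It was 0.196 for Adam17, in the libraries on which it was selected, against a median of 0.286 over the genes kept, and 0.622 for Erbb3, 0.502 for Areg, 0.468 for Egfr, 0.419 for Erbb2 and 0.365 for Tgfa, all 5 of them above that median. A stretch of 30 bases with the GC box of the Adam17 promoter entry (GRCr8, chr6:46649373-46649402, minus strand, 58 to 29 bases before the start used in the promoter table) is shown as the motif that it shared with Egfr, Erbb2 and Areg. The RefSeq gene span of Adam17 also reaches upstream of that start, so the stretch lies within the annotated span.
Adam17: gagcccgcgccgGGGCGGggcgagccacgc

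**Figure D3:**
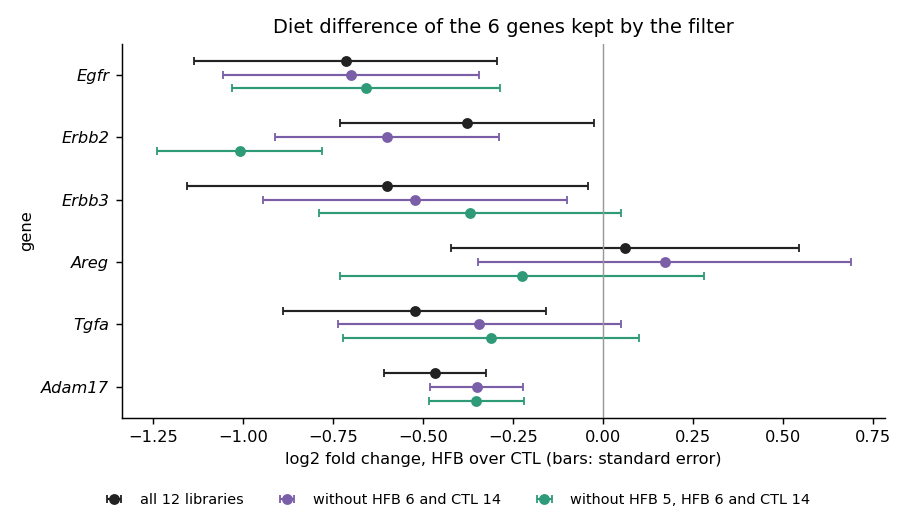
Log2 fold change of HFB over CTL (horizontal axis) with its standard error for the 6 members kept by the filter, over all 12 libraries, without HFB 6 and CTL 14, and without HFB 5 as well. Erbb2 moved from −0.38 to −1.01 as these libraries were left out, Areg changed sign and Adam17, selected on this contrast, lay between −0.47 and −0.35. Nothing is read from the bars of Adam17.

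Across all genes, no diet difference passed the adjusted threshold. Of 9382 genes tested with edgeR, 0 (0%) had an adjusted p under 0.05, as had 0 with DESeq2, while 219 (2.33%) had an unadjusted p under 0.05, 122 of them higher and 97 lower with HFB, and 271 with DESeq2. Of the 5 members tested (Egfr, Erbb2, Erbb3, Areg and Tgfa), 0 had an unadjusted p under 0.05 in edgeR over the 12 libraries, while limma voom with quality weights gave Erbb2 an unadjusted p of 0.00172 and an adjusted p of 0.707. Of the 5 members, leaving Adam17 aside, 4 had a log2 fold change below 0 in edgeR over the 12 libraries, as had 50% of all genes kept. Without HFB 5, HFB 6 and CTL 14, 462 of 9480 genes (4.87%) had an unadjusted p under 0.05 and 0 an adjusted p under 0.05, and Erbb2 was the one tested member among the 462.

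Other genes of the Erbb pathway were followed by their role. Of 70 listed genes, 61 were in the table and 55 passed the filter. The rest of the list (Epgn, Nrg3, Adam10, Adam8, Adam12, Braf, Lrig1, Lrig3 and Cbl) was not analysed here. With an unadjusted p under 0.05, 0 of the 55 were higher and 1 was lower with HFB, beside the 2.33% over all genes, and 0 passed the adjusted threshold. The median log2 fold change of the 55 was −0.09, with 36 below 0 and 19 above. Without HFB 6 and CTL 14 the median was −0.07, with 30 below 0 and 24 above among the 54 kept there, and without HFB 5 as well −0.05, with 33 below and 22 above. Lrig2, a membrane protein of the Lrig family that regulates growth factor receptors, was the 1 gene, at 6.46 ± 2.10 CPM with HFB and 9.47 ± 1.57 CPM with CTL (SD, n = 6 each). Its log2 fold change was −0.55 (SE 0.24, adjusted p = 0.999 in edgeR). The diets overlapped through HFB 1, at 10.3 CPM, and CTL 9, at 6.52 CPM, while the other HFB libraries were at 7.16 CPM or less and the other CTL libraries at 9.49 CPM or more. The call was lost without HFB 6 and CTL 14 (log2 fold change −0.53, unadjusted p = 0.0750 in edgeR), when Etv5, a transcription factor of the ETS family, was the 1 gene called instead (−0.43, unadjusted p = 0.0279), and without HFB 5 as well (−0.43, unadjusted p = 0.138). With 1 library left out it held in 3 of 12 fits, those without HFB 1, HFB 4 or CTL 9. Over all genes, 408 had an unadjusted p under 0.05 without HFB 6 and CTL 14, and 462 without HFB 5 as well.

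In the roles upstream of the receptors, Egf itself was at 4.83 ± 1.64 CPM with HFB and 4.62 ± 1.83 CPM with CTL (SD, n = 6 each), and the 2 other ligands kept, Egf and Nrg4, had log2 fold changes of 0.07 (SE 0.33) and 0.02 (SE 0.36). Without HFB 6 and CTL 14 these were 0.21 (SE 0.34) and 0.04 (SE 0.22), and without HFB 5 as well 0.31 (SE 0.34) and 0.07 (SE 0.23). Of the 7 sheddases and cofactors kept, 4 were below 0 and 3 above, and Adam9, another membrane metalloprotease, had the value farthest from 0, −0.42 (SE 0.59). With 4 reads in HFB 6 and 27 in both HFB 5 and CTL 14, Adam9 was at −0.38 (SE 0.33) without HFB 6 and CTL 14 and at −0.13 (SE 0.16) without HFB 5 as well, and 3 and 6 of the 7 genes of this role were then below 0. Rhbdf1 and Rhbdf2, which escort Adam17 to the cell surface, had values of 0.10 (SE 0.29) and −0.22 (SE 0.18), and Furin, which trims its prodomain, −0.02 (SE 0.10). Rhbdf1 was at 0.19 (SE 0.22) without HFB 6 and CTL 14 and turned to −0.06 (SE 0.16) without HFB 5 as well, Rhbdf2 was at −0.10 (SE 0.17) and −0.11 (SE 0.18), and Furin turned to 0.04 (SE 0.10) and 0.01 (SE 0.09). Furin was among the steadiest, between 115 and 139 CPM in all 12 libraries.

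Downstream, 7 of 9 adaptors and RAS activators were below 0, as were 6 of 7 genes of the PI3 kinase arm, with the regulatory subunit Pik3r1 at −0.57 (SE 0.64). Without HFB 6 and CTL 14 these counts were 7 of 9 and 7 of 7, with Pik3r1 at −0.53 (SE 0.44). Without HFB 5 as well they were 6 of 9 and 4 of 7, Pik3r1 was at −0.25 (SE 0.23), and the kinase Akt2 turned from −0.12 (SE 0.52) to 0.08 (SE 0.12). In the MAP kinase cascade 4 of 6 were above 0, with the kinase Map2k2 at 0.35 (SE 0.23), and at 0.12 (SE 0.11) without the 3 libraries. Of the genes induced when the receptors signal, 6 of 7 were below 0, 5 of 7 without HFB 6 and CTL 14, and 6 of 7 without the 3 libraries. The transcription factor Egr1 was at −0.54 (SE 0.50), and at −0.26 (SE 0.35) without the 3 libraries. Etv4 moved from −0.32 (SE 0.82) to −1.66 (SE 0.61) without the 3 libraries. The cell cycle regulator Ccnd1 was above 0 at 0.10 (SE 0.27), and at 0.02 (SE 0.16) without HFB 6 and CTL 14. It turned to −0.12 (SE 0.13) without the 3 libraries. Among 10 genes of feedback and receptor turnover the split was 6 below and 4 above 0, 4 below and 6 above without HFB 6 and CTL 14, and again 6 below and 4 above without the 3 libraries. Apart from Lrig2, whose unadjusted p was 0.0401 in edgeR, none of the 55 passed even the unadjusted threshold in that fit to the 12 libraries. In other fits to the 12 libraries, Etv5 passed it as well with limma voom and quality weights, where 613 genes did in all. Map2k2 passed it in edgeR with the luminal score as a covariate, where 740 genes did in all. Of the other Adam17 substrates kept, 5 of 7 were below 0 and 2 above, against 2 and 4 of the 6 kept without HFB 6 and CTL 14 and 3 and 4 without the 3 libraries.

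**Figure D4:**
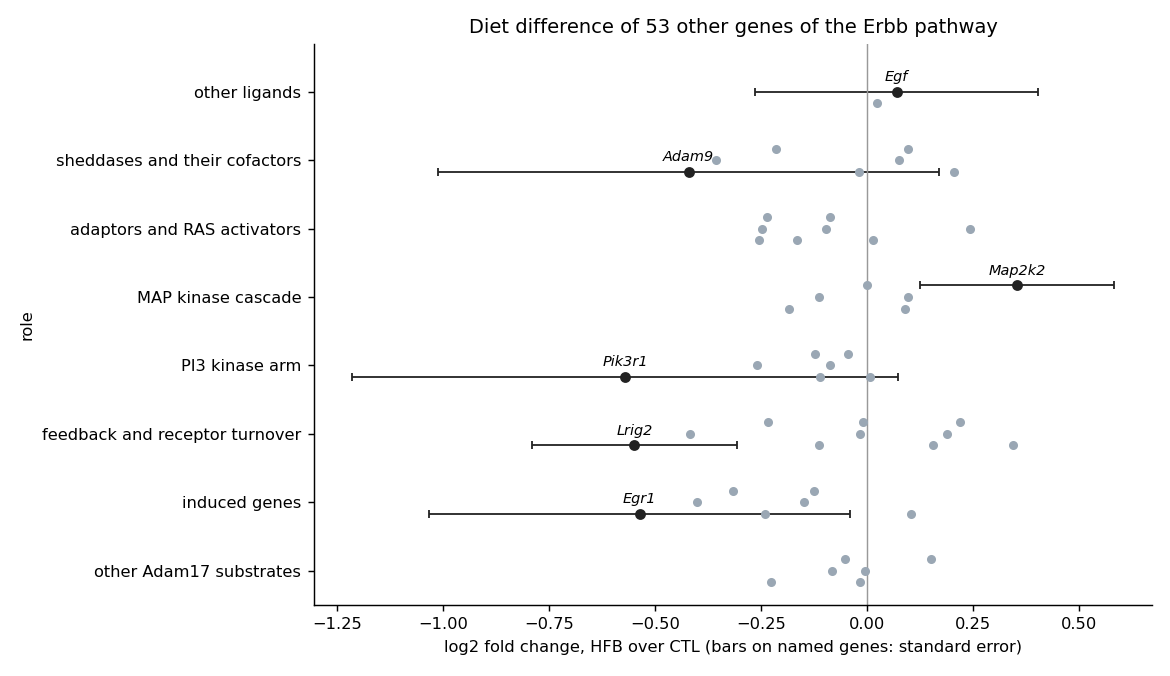
Log2 fold change of HFB over CTL (horizontal axis) of 53 of the 55 other pathway genes kept by the filter, by role (vertical axis), over the 12 libraries, with each point a gene and the standard error drawn for the genes named on the plot. The values of most roles lay on both sides of 0, and Lrig2, at −0.55, had an unadjusted p under 0.05.

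Levels were also set against scores for 6 tissue components, each the mean log2 CPM of its markers. The libraries fall apart as described, so the relations were computed over the 10 libraries without HFB 6 and CTL 14. Of 36 relations, 0 had an adjusted permutation p under 0.05, while among the 30 relations of members other than Adam17 an unadjusted permutation p under 0.05 was found for r in 2 and for rho in 4. Erbb2 was higher in libraries with a higher luminal score, with r = 0.81 (p = 0.00459, adjusted p = 0.117, permutation test) and rho = 0.83 (p = 0.00443, adjusted p = 0.159). Without HFB 1 and HFB 3, the libraries farthest from the median score, r was 0.79, and with the diet means removed it was 0.78. Over all 12 libraries r was 0.84 with an adjusted permutation p of 0.0306 and rho 0.85 with an adjusted permutation p of 0.0342, so that r was about as large with as without the libraries that stand apart. Without HFB 4 it was 0.89 with an adjusted permutation p of 0.0256, against 0.0256 to 0.270 over the alternatives.

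Areg, a product of luminal cells, gave r = 0.62 (p = 0.0568, adjusted p = 0.373, permutation test) and rho = 0.67 (p = 0.0389, adjusted p = 0.280) with the same score, and Egfr gave r = 0.63 (p = 0.0567, adjusted p = 0.373, permutation test) and rho = 0.54 (p = 0.116, adjusted p = 0.598). Without the farthest pair, r was 0.64 for Areg and 0.70 for Egfr. Erbb3, an epithelial receptor, had r = 0.24 and rho = 0.15 with luminal markers (p = 0.508 and 0.685, adjusted p = 0.761 and 0.909, permutation test). Without the farthest pair its r was 0.51, without HFB 2 it was −0.0023, without HFB 1 0.45, without HFB 5 0.48, and over all 12 libraries −0.15. Over all 12 libraries the r of Egfr with the luminal score was 0.16. With the fibroblast score, Egfr gave r = 0.47 over the 10 libraries (adjusted permutation p = 0.628) and 0.67 over all 12 (0.124). Its r with the adipocyte score was 0.28 over the 10 (0.711) and 0.61 over all 12 (0.136). With the lymphoid score it was −0.42 over the 10 (0.628) and −0.67 over all 12 (0.124).

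Adam17 and the fibroblast score gave r = 0.77 and rho = 0.78 over the 10 libraries, given as a description since Adam17 was selected on the diets. Without CTL 9 and HFB 2, the farthest pair, the r was 0.48. Without CTL 9 alone the r was 0.72, and without HFB 2 alone it was 0.62. With the diet means removed it was 0.52, and over all 12 libraries 0.27. Erbb2 gave r = 0.76 (p = 0.0109, adjusted p = 0.131, permutation test) and rho = 0.67 (p = 0.0388, adjusted p = 0.280) with fibroblast markers. This value was −0.17 over all 12 libraries, where HFB 6 and CTL 14 joined high Erbb2 levels to the lowest fibroblast scores. It was 0.91 with an adjusted permutation p of 0.0133 without CTL 9, 0.54 with an adjusted permutation p of 0.677 without HFB 2, and 0.59 with an adjusted permutation p of 0.467 with the diet means removed. Without CTL 9 and HFB 2, the farthest pair, it was 0.85. With Schwann cell markers, Erbb2 gave r = 0.58 (p = 0.0798, adjusted p = 0.410, permutation test) and rho = 0.68 (p = 0.0344, adjusted p = 0.280). Over all 12 libraries these were 0.63 and 0.73, with adjusted permutation p of 0.136 and 0.116, and without CTL 11 and HFB 1, the farthest pair, 0.47 and 0.50.

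**Figure D5:**
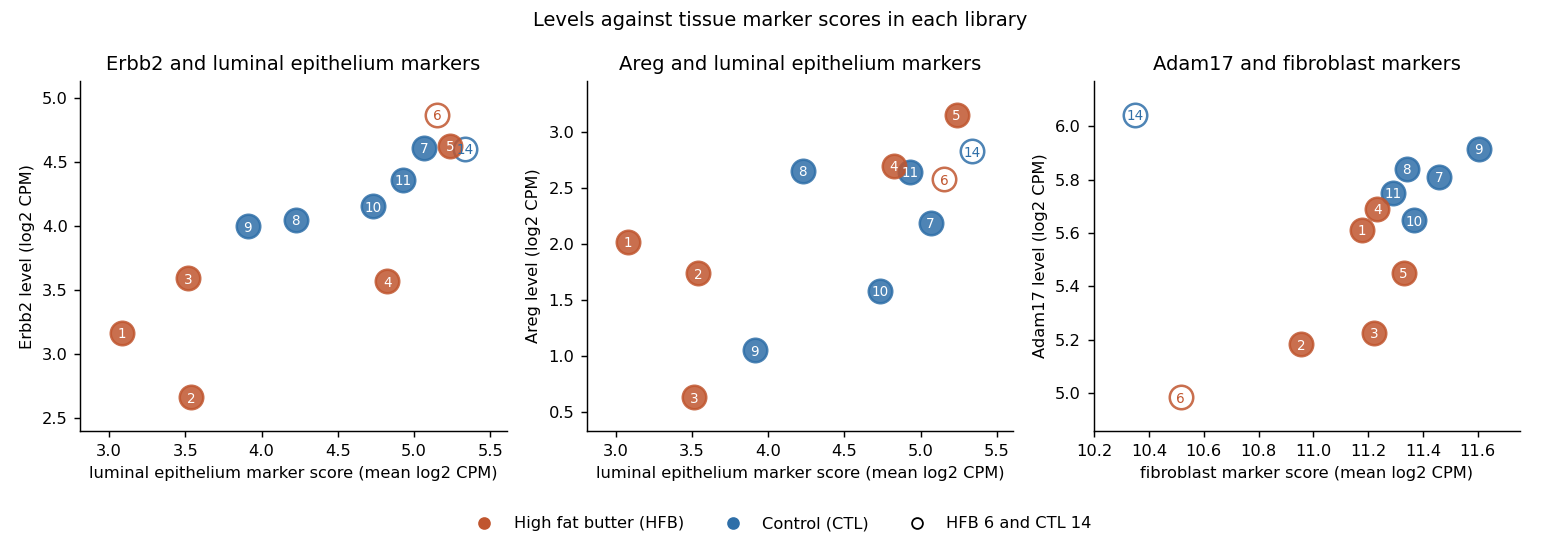
Log2 CPM of Erbb2 and Areg against the luminal epithelium score and of Adam17 against the fibroblast score (mean log2 CPM of the markers), with each circle a library that carries its library number and open circles for HFB 6 and CTL 14. Erbb2 followed the luminal score (r = 0.81 over 10 libraries), and CTL 14 joined the highest Adam17 level to the lowest fibroblast score.

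The genes most like each member over the 12 libraries were, after Erbb3 for Egfr, Clip3 (r = 0.898) and Mrc2 (r = 0.892). Erbb2 was most like Col9a2 (0.928), the growth factor Mdk (0.920) and the kinase Plk2 (0.918), and Erbb3 most like Llgl1 (0.964), Nup98 (0.946) and Tlr3 (0.945). For Areg these were Ing2 (0.931), Large2 (0.865) and Kif22 (0.832), for Tgfa Kpna2 (0.816), Rnaseh1 (0.781) and Riok2 (0.773), and for Adam17 Zscan25 (0.888), Dstyk (0.882) and Fjx1 (0.877). Over the 10 libraries Ing2 was again among the 3 genes most like Areg (0.936), Llgl1 among those of Erbb3 (0.944) and Kpna2 among those of Tgfa (0.843). The 3 genes changed in full for Egfr, Erbb2 and Adam17, with Shroom2 (0.969), Armh4 (0.940) and Plagl1 (0.921) now first. Adam17 and Tgfa, a substrate of it, had r = 0.59 over 12 libraries, at rank 272 for Adam17, and 0.43 over 10.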

How the data were processed

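The authors deposited raw counts of reads per gene for mammary glands, 16511 Entrez genes in 12 libraries. The submitters' processing notes name bcl2fastq, CASAVA 1.8, TopHat, DESeq and the rn4 build; the counting program, annotation and use of strand are not given in the sources used here, so reads of overlapping antisense genes cannot be told apart. Symbols (16351 genes) came from the RefSeq table of GRCr8, used for names only, beside its promoter sequences. Levels are CPM and not per length, so genes are not compared by level; the gene named first in a marker list has its highest mean CPM, without regard to length.

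The diet test was made in R 4.3.3 with edgeR 4.0.16 (TMM, filterByExpr, robust quasi-likelihood fit, Benjamini-Hochberg over 9382 genes). Log2 CPM used a prior count of 2. Standard errors in edgeR were computed from the log2 fold change and the F statistic of the test. Relations used two-sided permutation tests with 100000 resamples in Python 3.11.15, over 10 libraries although 12 had been planned. DESeq2 1.42.0 and limma 3.58.1 were alternatives. Scripts were tested on simulated data. Within each diet no libraries were found to be duplicates, with a chi-square per degree of freedom of at least 6.69 between any pair. Pairs across the diets were not examined in this way. The members and lists were chosen with earlier results of these data known. Named genes were the 10 members, pathway genes with an unadjusted p under 0.05 or else the largest absolute log2 fold change of their role, the 3 genes most like each member kept, and the markers by list; 2 genes that the rule names are not reported here. Furin, Nrg4, Rhbdf1, Rhbdf2, Ccnd1, Akt2, Timp3, Etv4 and Etv5 were named after their values had been seen.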

Additional observations from a re-analysis of the deposited data

Results flagged for a closer look

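In each diet, levels of the members, marker scores, total counts and the median correlation of a library with the others were examined for a library far from its group, 32 groups of 6 libraries in all. In 9 groups the lowest or highest library lay far from the rest, where chance gives about 1.6. Of the member levels, Tgfa in HFB 1 was one, at 9.05 CPM against 4.28 CPM in the next library. Most of the others were HFB 6 and CTL 14. Their median correlations with the other libraries were 0.786 and 0.836, against 0.909 and 0.949 for the next library of each diet. The adipocyte score was 9.43 in HFB 6 (next 10.66) and 9.18 in CTL 14 (next 10.77), the fibroblast score was 10.35 in CTL 14 (next 11.29), and the lymphoid score was 6.51 in CTL 14 (next 2.34). Total counts were lowest in HFB 1, at 2320267, and highest in CTL 7, at 2944680.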

How the results depend on the processing

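No paired analysis was possible because the libraries of the diets share no replicate numbers. The count of genes with an adjusted p under 0.05 was 0 in all 23 alternatives. The count with an unadjusted p under 0.05, 219 as reported, was 613 with limma voom and quality weights, 740 with the luminal score and 358 with the lymphoid score as a covariate, 408 without HFB 6 and CTL 14 and 462 without HFB 5 as well, an alternative chosen after seeing the data, as was the fit without normalization factors. Leaving out 1 library at a time gave 135 (without HFB 5) to 587 (without CTL 14), and also moved it by over 1.5 times for HFB 1 (377), HFB 4 (388), CTL 7 (139), CTL 10 (141) and CTL 11 (136). The cause was not tested. The count of pathway genes with an unadjusted p under 0.05, 1 as reported, was 0 with no filter and 2 with limma voom (Lrig2 and Etv5), with the luminal covariate (Lrig2 and Map2k2) and without HFB 5, HFB 6 and CTL 14 (Etv4 and Etv5), and 0 to 2 with 1 library left out.

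The log2 fold change of Adam17 lay between −0.56 and −0.35 over the 23 alternatives (−0.54 to −0.40 with 1 library left out), fits to the same libraries on which it was selected, so that nothing is read from this. Egfr, Erbb2, Erbb3 and Tgfa kept their direction in all alternatives run and did not pass the adjusted threshold in any. The log2 fold change of Areg turned to −0.29 with limma voom, −0.046 without normalization factors and −0.23 without HFB 5, HFB 6 and CTL 14, and lay between −0.22 and 0.28 with 1 library left out. With at least 10 counts in every library, Egfr, Erbb3, Areg and Tgfa were not tested. The count of relations with an adjusted p under 0.05, 0 as reported, was 1 over all 12 libraries and 0 to 1 with 1 library left out (1 without HFB 4 and 1 without CTL 9). The r of Erbb2 with the fibroblast score turned to −0.17 over all 12 libraries. Relations within each diet were not run, since 5 libraries remained in each, and diet means were removed instead. The depth limits Hbegf, Nrg1, Ereg and Erbb4 to counts.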

Other observations

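Some pathway genes had few reads in the libraries that stood apart and others many, a pattern chosen after its values had been seen. Timp3, an inhibitor of Adam17 and other metalloproteases, had 9 reads in HFB 6, 67 in HFB 5 and 76 in CTL 14, and between 190 and 290 in the other 9 libraries. Adam9 had 4, 27 and 27 reads in the same libraries, against 82 to 161 elsewhere, and Pik3r1 had 4, 17 and 30, against 91 to 224. Map2k2, by contrast, had 634, 458 and 473 reads, against 224 to 354 elsewhere, and Rhbdf1 had 185, 184 and 230, against 77 to 152. Erbb2 had 71, 62 and 67 reads in them, toward the upper end of the 13 to 75 reads elsewhere.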
